A study of Homo sapiens with 4 samples.

Results

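The SMAD family transcripts were examined in RNA immunoprecipitation sequencing (RIP-seq) of MDA-MB-231 cells, a triple negative breast cancer line of mesenchymal character. The members are all transcripts listed under the gene names SMAD1, SMAD2, SMAD3, SMAD4, SMAD5, SMAD6, SMAD7 and SMAD9 and were selected by name, with earlier results of these data known. They came to 44 transcripts of 8 genes, out of 75165 transcripts of 20298 gene identifiers. The cells of every library carried a lentiviral 3x flag-YTHDC1, introduced at a multiplicity of infection of 4, and had been kept under puromycin at 2 μg/ml over 4 days. There were 2 IP-YTHDC1 libraries, from RNA recovered with an anti-Flag antibody after UV crosslinking of the cells, and 2 input libraries, from the same kind of nuclear lysate before recovery. The cells are thus a model of tagged, overexpressed YTHDC1, a nuclear reader of the RNA modification m6A, and libraries from cells without the tagged protein or from a control IgG are not analysed here.

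The value used throughout is the authors' mean normalized count of each transcript, 1 value over the IP and input libraries together. It has no standard deviation and no n, and an IP mean and an input mean cannot be told apart in it. No level below says whether a transcript was recovered with YTHDC1, and no test between IP and input was made. Fewer cells and less RNA per cell cannot be told apart in such bulk values either. The counts are not divided by transcript length, so between genes they compare the numbers of reads assigned and not the numbers of RNA molecules. The depth of each library is unknown.

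SMAD proteins carry signals of the TGF-β superfamily from receptors at the cell surface to the nucleus. Receptor-regulated SMADs (R-SMADs) are phosphorylated by activated receptors, bind the common SMAD4 and act with it as transcription factors. SMAD2 and SMAD3 serve TGF-β and activin receptors, whereas SMAD1, SMAD5 and SMAD9 serve mainly BMP receptors. SMAD6 and SMAD7 are inhibitory SMADs, which act on receptors and on SMAD complexes and are themselves induced by the pathway. In breast cancer cells the TGF-β branch is known for its part in the epithelial-mesenchymal transition.

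The line was first described by markers, in pooled counts that mix abundance in the nuclear lysate with recovery by the antibody. All 4 mesenchymal markers were listed, with summed mean normalized counts over the transcripts of each gene from 7624 for CAV1 to 80785 for VIM, which encodes vimentin. Of 4 genes expected to be low, the hormone receptor genes ESR1 and PGR were not listed. The epithelial adhesion genes CDH1 and EPCAM summed to 10.04 and 78.3. The only listed CDH1 transcript, and 57.3% of the EPCAM counts, were not annotated as protein-coding. YTHDC1 itself summed to 55488, a value that can hold RNA of the vector as well as of the endogenous gene. In these pooled counts the mesenchymal markers thus far exceeded the epithelial and hormone receptor genes, and expression was not measured apart from recovery.

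The 44 SMAD transcripts summed to 14719 mean normalized counts, or 0.0441% of the sum over all listed transcripts. Their values ran from 5.55 for SMAD3-214 to 8538 for SMAD3-201, with a median of 80.9, beside a median of 44.2 over all transcripts. Among protein-coding transcripts alone the medians were closer, at 117 for the SMAD genes and 91.0 overall. Of the 44, 27 lay above the median of all transcripts. A mean of at least 100 was reached by 21 SMAD transcripts (47.7%), against 34.6% of all transcripts, and 5 SMAD transcripts lay below 10. These figures are descriptions, and nothing was tested between the family and other genes.

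**Figure D1:**
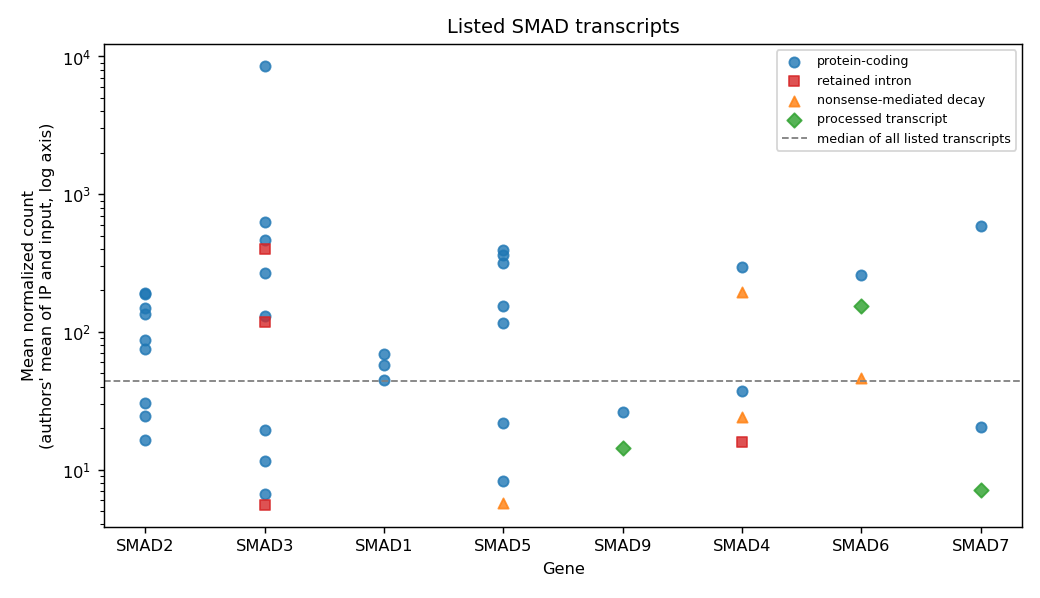
Each point is 1 listed SMAD transcript, placed by gene on the x axis and by the authors' mean normalized count over IP and input libraries on a log y axis, with the marker giving the annotated transcript type and the dashed line the median of all listed transcripts (44.2). SMAD3-201 at 8538 stands above every other SMAD transcript, and both SMAD9 transcripts lie below the line.

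By role, the 2 R-SMADs of the TGF-β and activin branch held 78.0% of the family's mean normalized counts, and the 3 R-SMADs of the BMP branch held 10.8%. The common SMAD4 held 3.84% and the 2 inhibitory SMADs held 7.27%. SMAD3 alone made up 71.9% of the family, and the other 7 genes together summed to 4129 mean normalized counts. These pooled counts mix abundance in the nuclear lysate with recovery by the antibody, so the shares are not shares of expression. The order of the genes by summed mean normalized counts was SMAD3, SMAD5, SMAD2, SMAD7, SMAD4, SMAD6, SMAD1 and SMAD9. By the most abundant transcript of each gene alone, SMAD7 (585) came next after SMAD3, ahead of SMAD5 (392), and SMAD2 (191) came after SMAD4 (294) and SMAD6 (258). As the values carry no spread, it could not be said which neighbours in this order differ beyond their error.

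SMAD3 (ENSG00000166949.16) lies on chromosome 15 from 67065602 to 67195169 on the plus strand in GRCh38.p14, and summed to 10591 mean normalized counts over 11 listed transcripts. It encodes an R-SMAD that binds DNA directly and acts as a transcription factor for TGF-β responsive genes. The protein-coding SMAD3-201 took 8538 of these counts, a value above that of 99.5% of all listed transcripts. The next in order was the protein-coding SMAD3-202 with 629, so the leading transcript exceeded the second 13.6-fold. SMAD3-204 had 464, SMAD3-213 had 266 and SMAD3-209 had 132, all annotated as protein-coding. SMAD3 was also the only SMAD gene with more than 1 retained-intron transcript listed, namely SMAD3-212 with 399, SMAD3-207 with 118 and SMAD3-214 with 5.55. Together these 3 held 4.94% of the gene's mean normalized counts. Over all genes with a listed coding transcript, retained-intron transcripts held a similar 4.15% of the counts and were 17.1% of the transcripts. SMAD3 also had the most listed transcripts of the family. SMAD3-212 was the most abundant SMAD transcript that is not protein-coding. It exceeded every transcript of SMAD1, SMAD2, SMAD4, SMAD5, SMAD6 and SMAD9 in counts, but SMAD5-202 was close with 392. The values carry no spread by which to separate these transcripts.

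SMAD2 (ENSG00000175387.16), the other R-SMAD of this branch, lies on chromosome 18 from 47808957 to 47930872 on the minus strand and showed a different make-up. Its 9 listed transcripts were all annotated as protein-coding and summed to 898 mean normalized counts, so SMAD3 exceeded SMAD2 11.8-fold in counts not divided by length. The fold was 11.2 with protein-coding transcripts alone and 15.9 with a minimum mean normalized count of 100. It was 44.8 by the most abundant transcripts alone, which sets 80.6% of the SMAD3 counts against 21.2% of the SMAD2 counts. These settings for the fold were chosen after the data were seen. No SMAD2 transcript dominated. SMAD2-205 had 191, SMAD2-211 had 189, SMAD2-207 had 150 and SMAD2-201 had 135 mean normalized counts. The leading transcript held 21.2% of the gene and exceeded the second only 1.01-fold. The remaining 5 ranged from 16.5 for SMAD2-210 to 87.2 for SMAD2-212.

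Among the R-SMADs of the BMP branch, SMAD5 (ENSG00000113658.18) had the most counts. It lies on chromosome 5 from 136132845 to 136182733 on the plus strand, and its 8 listed transcripts summed to 1382. SMAD5-202 had 392, SMAD5-212 had 363 and SMAD5-211 had 319, all protein-coding, and they held 28.4%, 26.3% and 23.1% of the gene. SMAD5-201, the transcript with the lowest number, had only 8.26. The single listed nonsense-mediated decay transcript, SMAD5-208, had 5.69. Several isoforms with similar counts thus shared the total of SMAD5, as they did in SMAD2.

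SMAD1 (ENSG00000170365.10), on chromosome 4 from 145480770 to 145559176 on the plus strand, had 3 listed transcripts and a sum of 172. These were SMAD1-201 with 69.2, SMAD1-202 with 58.0 and SMAD1-211 with 44.4, all protein-coding and within 1.56-fold of one another. SMAD9 (ENSG00000120693.13), on chromosome 13 from 36844831 to 36920854 on the minus strand, had the lowest sum of the family. Its 2 listed transcripts, the protein-coding SMAD9-202 and the processed transcript SMAD9-204, had 26.4 and 14.4 mean normalized counts. No transcript of SMAD1 or SMAD9 reached 100, and counts this small carry the least information on isoforms.

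SMAD4 (ENSG00000141646.14), the partner shared by both branches, lies on chromosome 18 from 51030213 to 51085042 on the plus strand. Its 5 listed transcripts summed to 565. The protein-coding SMAD4-201 had 294 mean normalized counts, or 52.0% of the gene. The second, SMAD4-213, had 194 or 34.3%. It is annotated not as protein-coding but as a target of nonsense-mediated decay, the pathway that degrades RNA with a premature stop codon. SMAD4-205, which is protein-coding, had 37.1. The nonsense-mediated decay transcript SMAD4-216 had 24.2 and the retained-intron transcript SMAD4-211 had 15.8. In all, 41.4% of the SMAD4 counts were assigned to transcripts that are not annotated as protein-coding. Nonsense-mediated decay transcripts alone held 38.6% of the gene. Non-coding is used in this report for every annotated type other than protein-coding, nonsense-mediated decay included. As the RNA came from nuclear lysate, the 41.4% and the other non-coding shares given here are not shares of whole-cell RNA.

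Both inhibitory SMADs had 3 listed transcripts, with unlike make-up. SMAD7 (ENSG00000101665.9), on chromosome 18 from 48919853 to 48950965 on the minus strand, summed to 612. SMAD7-201 alone had 585 mean normalized counts, or 95.5% of the gene, and SMAD7-207 and SMAD7-205 had 20.5 and 7.07. SMAD6 (ENSG00000137834.15), on chromosome 15 from 66702236 to 66782849 on the plus strand, summed to 459. The protein-coding SMAD6-201 had 258, the processed transcript SMAD6-205 had 154 and the nonsense-mediated decay transcript SMAD6-202 had 46.3. The non-coding share of SMAD6 was therefore 43.7%, the highest of the 8 genes, against 1.15% for SMAD7. SMAD6 and SMAD3 lie on the same strand of chromosome 15 with 283 kb between them, and SMAD7 lies between SMAD2 and SMAD4 on chromosome 18, at 989 kb from SMAD2 and 2079 kb from SMAD4.

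**Figure D2:**
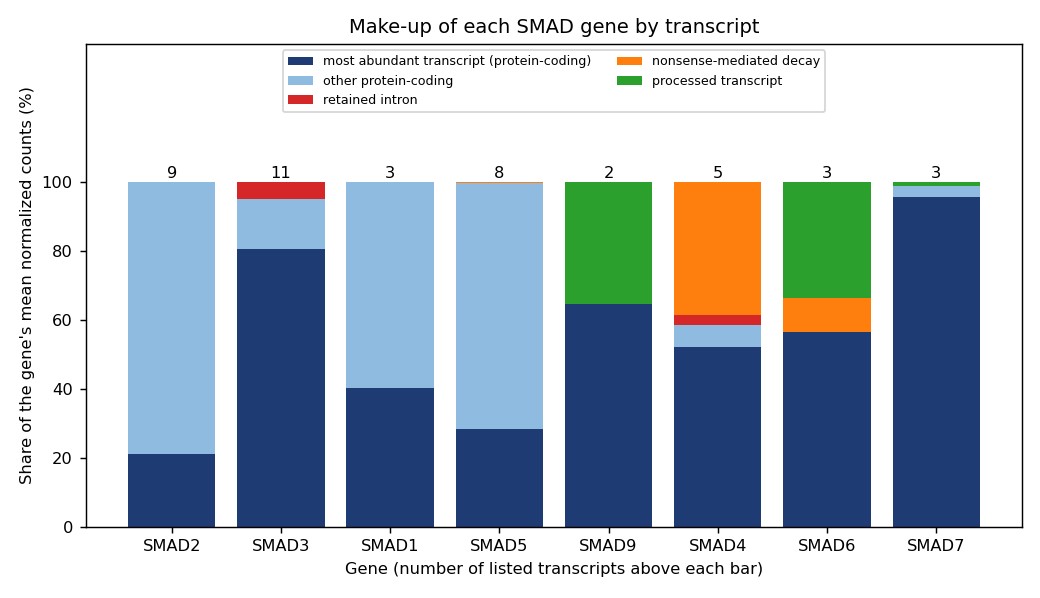
Bars give the share (%) of each gene's mean normalized counts by transcript, with the most abundant transcript at the bottom, other protein-coding transcripts above it and then the non-coding types, and the number above each bar counts the listed transcripts. The most abundant transcript takes 95.5% of SMAD7 and 80.6% of SMAD3 but 21.2% of SMAD2. Non-coding types, meaning all types other than protein-coding, take 43.7% of SMAD6, 41.4% of SMAD4 and 35.3% of SMAD9.

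By annotated type, 33 of the 44 SMAD transcripts were protein-coding, 4 had a retained intron, 4 were nonsense-mediated decay targets and 3 were processed transcripts. The 11 non-coding transcripts were 25.0% of the listed SMAD transcripts and held 6.69% of the counts. Over the 13631 genes with at least 1 listed coding transcript, the non-coding transcripts were 39.8% of the transcripts and held 12.3% of the counts. Without SMAD3, the other 7 SMAD genes had a non-coding share of 11.2%, close to that of all such genes. Within genes the non-coding share ran from 0% in SMAD1 and SMAD2 through 0.412% in SMAD5, 1.15% in SMAD7 and 4.94% in SMAD3 to 35.3% in SMAD9, 41.4% in SMAD4 and 43.7% in SMAD6. Among the SMAD partner genes described below it ran from 0% to 60.9%, and among the receptor genes from 0% to 83.1%. The 12.3% is a share of pooled counts, and the spread of this share over all single genes was not computed. In all 8 genes the most abundant transcript was a protein-coding one, and in 5 of them it was the transcript numbered 201. Over the genes with a listed coding transcript, protein-coding transcripts held 87.7% of the counts. How often the leading transcript is protein-coding, or is numbered 201, over all genes was not computed, so neither count is read as a trait of the family.

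The number of isoforms that share a gene's counts was summarised by the effective number of transcripts. The effective number equals the number of listed transcripts when all hold equal counts and 1 when a single transcript holds all counts. It was 6.31 in SMAD2, 4.49 in SMAD5, 2.91 in SMAD1, 2.53 in SMAD4, 2.27 in SMAD6, 1.84 in SMAD9, 1.52 in SMAD3 and 1.10 in SMAD7. Each gene was set beside all genes with as many listed transcripts, since the share of a leading transcript falls as more are listed. Among 272 genes with 11 listed transcripts the leading one held a median of 45.3% (quartiles 33.8% and 61.5%), and the share in SMAD3 was above that of 93.8% of them. Among 2131 genes with 3 the median was 66.0% (quartiles 52.5% and 82.1%), with SMAD7 above 93.8% of them, SMAD6 above 32.8% and SMAD1 above only 4.55%. Among 452 genes with 9 the median was 47.2% (quartiles 37.2% and 61.8%), and SMAD2 was above 1.11% of them. SMAD5 was above 9.01% of 644 genes with 8 listed transcripts. SMAD4 and SMAD9 lay within the quartiles of their groups. The paired R-SMADs of the TGF-β branch thus stood at opposite ends of this scale. These positions describe pooled estimates and were not tested.

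**Figure D3:**
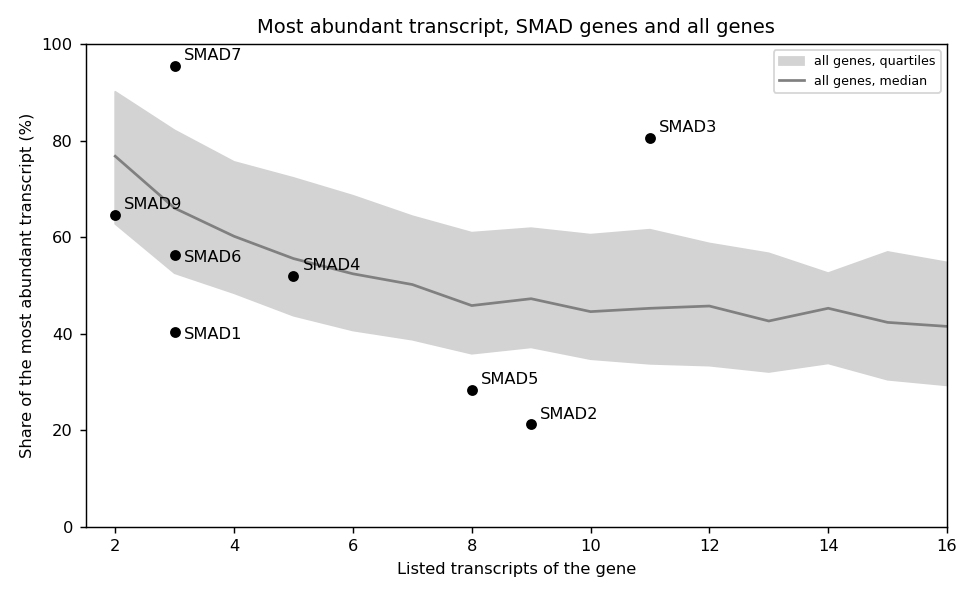
Points give, for each SMAD gene, the share (%) of its mean normalized counts held by its most abundant transcript against its number of listed transcripts, and the grey line and band give the median and quartiles of all genes with that number. SMAD3 and SMAD7 lie above the band, SMAD1, SMAD2 and SMAD5 below it, and SMAD4, SMAD6 and SMAD9 inside it.

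The listed transcripts are a part of those named in the annotation. Numbers run from 201 upward within a gene, and up to the highest number listed there were 81 across the family, of which 37 were not listed. SMAD4 had the most unlisted numbers, with 11 of 16, followed by SMAD1 with 8 of 11. SMAD2 and SMAD3 each had 3 unlisted, out of 12 and 14. Transcripts with few reads had been removed by the authors, and other reasons for an unlisted number were not tested. RefSeq, a separate annotation, holds 11 coding transcripts for SMAD3 and 8 for SMAD1, but 3 for SMAD2 and for SMAD5. Against these, the listed protein-coding transcripts here were 8 for SMAD3, 3 for SMAD1, 9 for SMAD2 and 7 for SMAD5.

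Of 23 genes whose products bind or regulate SMADs, 22 were listed with 133 transcripts, and LDLRAD4 was not listed under that symbol. Their summed mean normalized counts had a median of 1471. The highest were the coactivator genes CREBBP with 9780 and EP300 with 9324, followed by the corepressor gene SKI with 7275, and FOXH1, a DNA-binding partner of SMAD2, was lowest with 23.0. SMURF1 and SMURF2, whose products are ubiquitin ligases recruited to receptors by inhibitory SMADs, summed to 4363 and 5368. In the 20 of these genes with at least 2 listed transcripts, the leading transcript held a median of 54.2% of the counts, and it ranged from 27.8% in NEDD4L to 97.2% in EP300. The median over the 8 SMAD genes was also 54.2%, with a range from 21.2% in SMAD2 to 95.5% in SMAD7. Over all 12648 genes with at least 2 listed transcripts it was 59.8%. These medians are not matched for the number of listed transcripts, on which the share depends.

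Of 12 receptor genes of the superfamily, 10 were listed, and ACVR1C and ACVRL1 were not. The highest sum was that of TGFBR2, the TGF-β type II receptor, with 5732 mean normalized counts, and TGFBR1, its type I partner, had 1239. BMPR2, the BMP type II receptor, had 3453. The lowest was BMPR1B with 111. In the BMP type I receptor gene BMPR1A, 83.1% of the 876 counts were assigned to transcripts not annotated as protein-coding, a higher share than in any SMAD gene. The antisense genes SMAD5-AS1, SMAD1-AS1 and SMAD1-AS2 were not listed.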

How the data were processed

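RNA of 2 IP-YTHDC1 and 2 input libraries was sequenced, grouped here by the sample titles. The RNA had been depleted of ribosomal RNA before the libraries were made. The authors mapped reads with STAR (version 2.7.2b) to a GENCODE transcriptome of GRCh38, estimated reads per transcript with RSEM (version 1.2.31), removed transcripts with few reads, corrected batch effects with RUVSeq and compared groups with DESeq2. RSEM divides reads that fit several isoforms by a statistical estimate, so isoform shares can rest on few reads of their own. The strand setting of the counting is not given in the sources used here. The signal deposited by the authors is, per transcript, an average of normalized counts across the 4 libraries, and whether RUVSeq altered it is not stated. The other 4 value columns hold the authors' own comparison (log2 fold change, its standard error, p-value and adjusted p-value) and were not used. The planned test of IP against input needs counts per library and was not run, so every value is a description.

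Sums, shares, the effective number of transcripts (the inverse of the summed squared shares) and percentiles were computed with python 3.11.15, numpy 2.4.6 and pandas 2.3.3, and figures were drawn with matplotlib 3.10.9. The code for sums and shares was checked on genes of these data in which a transcript's value had been replaced to give a known share. Genes named are the 8 members, with their transcripts, and genes of lists of SMAD partners, receptors, antisense genes and line markers, given by counts, ranges, the highest and those not listed. SMURF1, SMURF2, SKI, EP300, NEDD4L, TGFBR1, BMPR2, BMPR1A and BMPR1B were singled out from these lists after their values were seen. The members and lists were chosen with earlier results of these data known. All 8 SMAD gene identifiers were found with the same symbol in a separate table of gene names. Coordinates are those of RefSeq genes on GRCh38.p14, and no sequence was used. Transcript lengths were not used here, so no value is per length.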

Additional observations from a re-analysis of the deposited data

How the results depend on the processing

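Numbers of listed transcripts, sums, shares of the leading transcript and non-coding shares were recomputed under those settings that apply to each (a minimum mean normalized count, protein-coding transcripts alone or the most abundant transcript alone), and a value counted as moved beyond a change of 1.5-fold, since no replicate error was at hand. A minimum of 100 left 21 of the 44 SMAD transcripts, in 6 genes, because no SMAD1 or SMAD9 transcript reached it. With protein-coding transcripts alone, the median share of the leading transcript over the 8 genes rose from 54.2% to 86.8%. The non-coding transcripts had left the denominators of SMAD4, SMAD6 and SMAD9. SMAD6 and SMAD9 had only 1 listed protein-coding transcript each, so their shares of 100% under this setting were fixed in advance. Under these settings the family's sum stayed within 1.5-fold, and the most abundant transcript alone gave a family sum of 10354. The family's non-coding share was recomputed under the minimum of 100 alone, where it was 6.16% beside 6.69% as reported. Of 64 values recomputed for single genes, 42 stayed within 1.5-fold and 22 did not. By settings chosen after seeing the data, the non-coding share of the family was 11.2% without SMAD3, and SMAD3 exceeded SMAD2 by 44.8-fold with the most abundant transcript alone. Both values moved beyond 1.5-fold, whereas the other settings for the fold of SMAD3 over SMAD2 stayed within it. Effective numbers of transcripts, percentiles among genes and shares by role were not recomputed. No paired analysis was possible because the column used carries 1 pooled value and no replicate numbers. For the same reason DESeq2 size factors, no filter on low counts and leaving out single libraries were not run for IP against input. Depth limits the low transcripts most, and the precision of a pooled mean of a few counts is unknown here.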
